A study of Mus musculus with 6 samples.

Results

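Mitosis genes are described here in antral gastric mucosa of mice that lack Muc6, a secreted mucin made by mucous cells of the antral glands. The set holds 40 genes of the G2 and mitosis phases of the cell cycle, named by symbol, and all 40 were found among the 34866 gene identifiers of the counts table, with all 40 also among the 14017 genes that had enough counts to be tested. The series compared 3 libraries of Muc6 -/- mice (knockout 1 to 3) with 3 libraries of Muc6 +/+ mice (wild type 1 to 3), to study how loss of the mucin relates to gastric carcinogenesis. RNA came from the mucosa at the antrum, the distal part of the stomach, and libraries were stranded and made from polyadenylated RNA. The sources used here give no age, strain or sex, nor how the allele was made or whether each library is 1 animal. The p-values therefore rest on the spread among these libraries, part of which may be technical.

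During mitosis, cyclin B with the kinase CDK1 drives the cell into division, condensin and topoisomerase II compact and untangle the chromosomes, kinetochores attach them to spindle microtubules, and a checkpoint holds back the anaphase-promoting complex until all are attached. The genes are switched on together late in the cell cycle, by B-MYB and FOXM1 with the MuvB complex at an element called CHR (cell cycle genes homology region) and by NF-Y at CCAAT boxes, and the DREAM complex keeps them off in resting cells. In the stomach lining, dividing cells sit mainly in the isthmus and, in the antrum, also at the gland base, and Ki-67, the product of Mki67, is the usual stain for them.

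The libraries held 19839799 to 21354029 counts. Muc6 checked the labels, with 1, 0 and 0 counts in knockout 1 to 3 and 7295, 7158 and 8795 counts in wild type 1 to 3. The Y-linked gene Ddx3y was at 39.2 to 41.1 CPM (counts scaled to a library of 1000000) in the knockout and 0.0579 to 0.326 CPM in wild type, so sex and genotype cannot be told apart, which bears most directly on Kif4, the X-linked member. Markers of the stomach surface were present but differed, with pit cell markers (Gkn1, Gkn2, Muc5ac, Tff1) summing to 37200 to 47600 CPM in the knockout and 157000 to 181000 CPM in wild type. Principal component 2 set knockout 1 (43.3) and wild type 1 (62.6) apart from the other 4 libraries (-43.7 to -18.8), so results are also given without both of these libraries.

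Mitosis genes were lower in the knockout more often than higher, but by small amounts and unevenly. Of the 40 genes, 15 fell, 1 rose and 24 did not pass the test at a false discovery rate of 0.05 (edgeR quasi-likelihood test with Benjamini-Hochberg adjustment over all tested genes). Over all 14017 tested genes, 38.4% changed, 19.2% falling and 19.3% rising. The 16 of 40 mitosis genes that changed are thus near the background, and their direction is what differed from it. The median log2 fold change of knockout over wild type was -0.38 for the 40 genes and 0.02 for all tested genes. The members ranged from -1.91 (Hmgb2) to 0.52 (Ncapd2), and the change was at least a factor of 2 in only 3 of the genes that fell (Hmgb2, Ndc80 and Nusap1). In bulk tissue, fewer dividing cells and less of these transcripts per cell cannot be told apart.

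These calls depend on how libraries are scaled. The main scaling corrects for composition with TMM factors, which were 1.144 to 1.165 in the knockout and 0.8628 to 0.8688 in wild type. Scaled to total counts alone, the median of all tested genes moved to 0.43 and that of the mitosis genes to 0.04, so the set lay 0.40 below the median of all genes on the main scale, a gap that a common scaling factor leaves nearly as it is (0.39 with total counts). The gap was 0.25 without both libraries numbered 1 and 0.17 with each library's trend over transcript GC content removed. Under total-count scaling 12 of the 40 genes were called, 4 as lower and 8 as higher. Of all tested genes 48.6% were then called, 7.81% as lower and 40.8% as higher. Hmgb2, Ndc80, Nusap1 and Mki67 were lower under both scalings. They were also the only members lower under all 18 alternative settings.

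**Figure D1:**
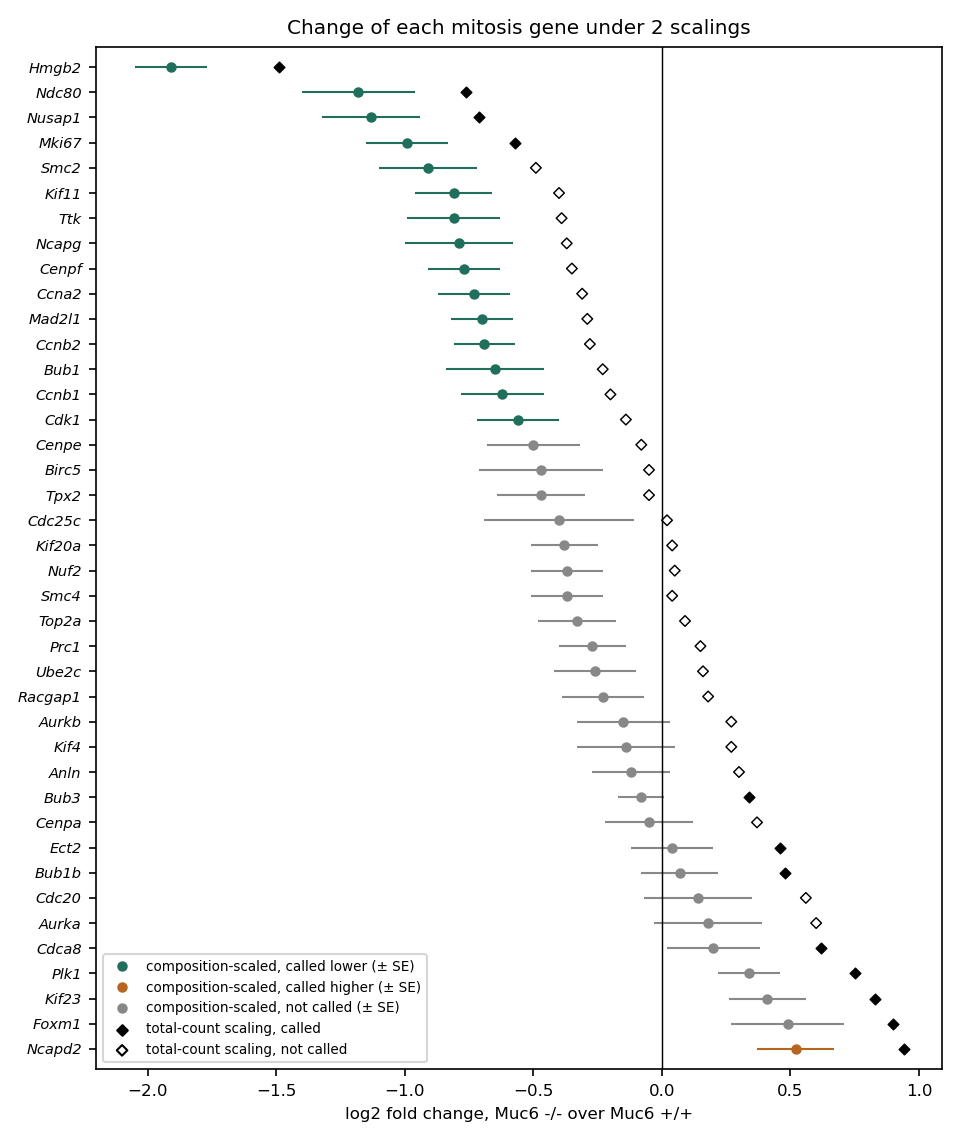
Log2 fold change of knockout over wild type for the 40 mitosis genes, one per line. Circles with bars (estimate ± SE) use composition-scaled libraries and diamonds total-count scaling, filled where the adjusted p was under 0.05; Hmgb2, Ndc80, Nusap1 and Mki67 are lower under both, and Ncapd2 is higher under both.

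Hmgb2, which encodes a chromatin protein that bends DNA, changed most. Its level was 53.3, 65.8 and 67.7 CPM in knockout 1 to 3, against 248, 245 and 207 CPM in wild type 1 to 3. The groups lay far apart, and the log2 fold change was -1.91 (SE 0.14, edgeR adjusted p = 2.52e-04). It was -1.49 with total counts (edgeR adjusted p = 3.65e-04). Mki67, whose product coats mitotic chromosomes, had 101, 130 and 137 CPM in the knockout and 215, 281 and 235 CPM in wild type. No knockout library reached the lowest wild-type one, and the log2 fold change was -0.99 (SE 0.16, edgeR adjusted p = 0.00312). Both genes are abundant, and together with the other members they gave 26008 to 33060 counts per knockout library and 30308 to 35980 per wild-type library.

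Ndc80, the kinetochore subunit that binds microtubules, had 6.41, 11 and 10.1 CPM in the knockout and 18.5, 23.8 and 20.2 CPM in wild type. The log2 fold change was -1.18 (SE 0.22, edgeR adjusted p = 0.00598), and the groups did not overlap. Nusap1, whose product bundles microtubules near the chromosomes, had 22.9, 30.8 and 25 CPM in the knockout and 45.3, 70.2 and 56.4 CPM in wild type. It fell by 1.13 on the log2 scale (SE 0.19, edgeR adjusted p = 0.0038). Nusap1 overlaps Oip5 on the other strand, and the sources used here do not say whether the counting used strand.

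Ncapd2, a subunit of condensin I, was the 1 member called higher. It had 19.9, 22.0 and 16.4 CPM in the knockout and 14.7, 12.9 and 13 CPM in wild type. The groups were separate but close, and the log2 fold change was 0.52 (SE 0.15, edgeR adjusted p = 0.0299). The call ended without knockout 1 (edgeR adjusted p = 0.0719), knockout 2 (0.115), wild type 2 (0.0965) or wild type 3 (0.095), and with the trend over transcript GC content removed (0.142).

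Promoters are shown for Mki67 and for the called members with the largest changes that hold a CHR match, because CHR and CCAAT are elements mitosis genes are known to share, and the set was not chosen on them. Nusap1 is not shown, and its promoter held no match to CHR or CCAAT. Sequences are from RefSeq (GRCm38.p6, the same build as mm10), 250 bases before to 50 bases after the annotated start, read on the gene's strand. Capitals mark matches to CHR (TTTGAA or TTCGAA) and to CCAAT on either strand, so that TTCAAA and ATTGG are reverse-strand matches. Hmgb2 lies at chr8:57511593-57511892 on the plus strand, Ndc80 at chr17:71526808-71527107, Mki67 at chr7:135716330-135716629 and Ncapd2 at chr6:125191537-125191836, these last all on the minus strand.
Hmgb2: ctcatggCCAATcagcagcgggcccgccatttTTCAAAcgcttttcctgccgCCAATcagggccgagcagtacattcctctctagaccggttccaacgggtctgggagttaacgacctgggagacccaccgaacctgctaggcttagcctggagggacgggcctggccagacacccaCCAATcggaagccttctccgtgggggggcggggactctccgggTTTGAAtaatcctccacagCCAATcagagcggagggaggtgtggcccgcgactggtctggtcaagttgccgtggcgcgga
Ndc80: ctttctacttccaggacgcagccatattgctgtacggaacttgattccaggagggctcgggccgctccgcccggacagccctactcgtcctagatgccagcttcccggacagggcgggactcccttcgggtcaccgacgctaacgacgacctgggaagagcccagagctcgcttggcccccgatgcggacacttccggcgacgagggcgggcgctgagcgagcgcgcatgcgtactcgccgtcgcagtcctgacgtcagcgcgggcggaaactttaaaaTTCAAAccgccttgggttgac
Mki67: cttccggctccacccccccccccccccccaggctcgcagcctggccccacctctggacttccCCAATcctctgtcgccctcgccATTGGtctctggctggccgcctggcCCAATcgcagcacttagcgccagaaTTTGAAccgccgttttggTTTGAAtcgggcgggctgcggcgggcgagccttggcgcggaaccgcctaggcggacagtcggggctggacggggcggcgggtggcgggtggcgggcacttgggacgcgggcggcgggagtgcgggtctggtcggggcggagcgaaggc
Ncapd2: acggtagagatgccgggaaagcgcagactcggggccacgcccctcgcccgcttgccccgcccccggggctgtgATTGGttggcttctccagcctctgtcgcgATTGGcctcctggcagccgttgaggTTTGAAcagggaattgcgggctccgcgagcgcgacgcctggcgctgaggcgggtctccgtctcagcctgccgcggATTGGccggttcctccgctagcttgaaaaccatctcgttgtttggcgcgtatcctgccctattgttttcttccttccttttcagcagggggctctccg

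In the Hmgb2 promoter CHR matches began 218 and 30 bases before the start, with CCAAT boxes 243, 198, 73 and 11 bases before it. Mki67 held its CHR matches 116 and 98 bases before the start. Ncapd2 had one 123 bases before the start. The Ndc80 window held 1 CHR match, after the start, and no CCAAT.

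RefSeq promoters were matched for 33 of the 40 genes, as 36 promoters. A CHR match was found in 30 of the 36 (83.3%), against 19.2% of all 32851 promoters of the same length and 14.1% of those of tested genes. It began within 50 bases of the start in 27 of the 36 (75.0%), against 5.31% of all promoters. CCAAT was in 83.3% of the members' promoters and 37.4% of all, and CHR with CCAAT in 77.8% and 7.52%. An E2F motif (TTTCGCGC or TTTGGCGC) was in 5.56% and 0.813%, and a forkhead motif (TGTTTAC) in 5.56% and 3.65%.

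The elements were about as common in members that fell as in those that did not pass. Of the 14 promoters of genes that fell, 11 held CHR (78.6%) and 11 CCAAT (78.6%), and of the 21 promoters of genes that did not pass, 18 held CHR (85.7%) and 18 CCAAT (85.7%). A match is a run of letters and not a measured binding site.

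**Figure D2:**
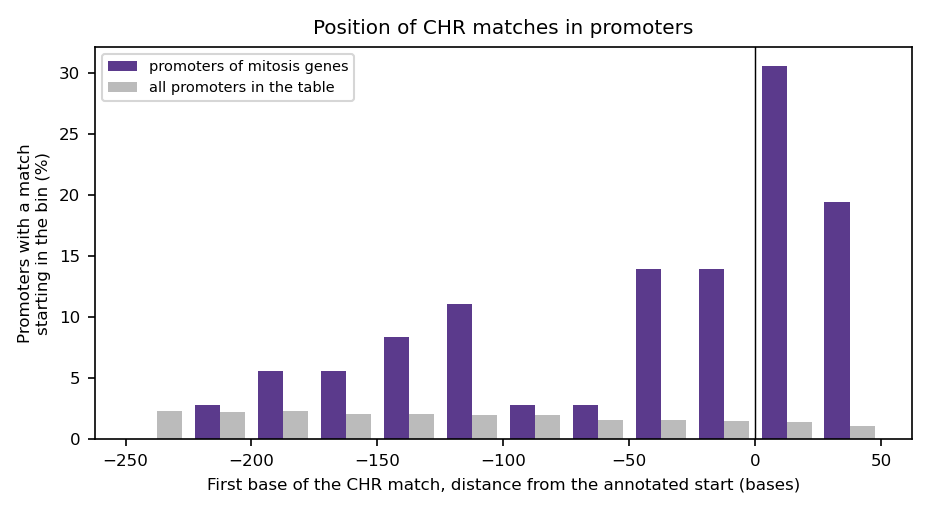
Share of promoters with a CHR match (either strand) starting in each 25-base bin, by distance in bases from the annotated start, for the 36 promoters of mitosis genes (dark bars) and all 32851 promoters (grey bars). The members peak in the bin just after the start, at 30.6%, where all promoters are at 1.43%.

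In the main comparison the cyclins and CDK1 that start mitosis fell, and the other kinases and activators around them did not pass. Ccna2 (cyclin A2) had 40.6, 56.6 and 56.3 CPM in the knockout and 88.1, 85.3 and 81.6 CPM in wild type, a log2 fold change of -0.73 (SE 0.14, edgeR adjusted p = 0.00684). Ccnb2 and Ccnb1, the B cyclins, fell by 0.69 and 0.62 on the log2 scale, with Ccnb1 at 21.9 to 32.7 CPM in the knockout and 41.4 to 44.8 CPM in wild type. Cdk1, their kinase partner, was at 28.3, 40.6 and 40.5 CPM in the knockout and 55.1, 56.2 and 49.7 CPM in wild type, with a log2 fold change of -0.56 (SE 0.16, edgeR adjusted p = 0.0271). In all 4 genes every knockout library was below every wild-type one, as in 26.6% of all tested genes. Scaled to total counts, this held for Ccna2 and Ccnb2 only (11.6% of all genes). None of the 4 then passed (edgeR adjusted p 0.112 for Ccna2, 0.0971 for Ccnb2, 0.334 for Ccnb1 and 0.499 for Cdk1).

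Plk1, a kinase that promotes entry and spindle assembly, lay the other way. It was at 71.3, 67.0 and 69.5 CPM in the knockout and 63.6, 49.2 and 51.9 CPM in wild type, so the groups did not overlap. The log2 fold change was 0.34 (SE 0.12) and did not pass (edgeR adjusted p = 0.0598), but it passed without wild type 1 (0.45, edgeR adjusted p = 0.00877) and without both libraries numbered 1 (0.41, 0.0103). With each library's trend over transcript GC content removed it was 0.04, and with total counts 0.75 (edgeR adjusted p = 0.00205). Foxm1, the transcription factor of the programme, had 10.7, 13.1 and 13.9 CPM in the knockout and 11.5, 7.47 and 7.88 CPM in wild type. Its groups overlapped through wild type 1 alone, and the log2 fold change of 0.49 (SE 0.22) did not pass (edgeR adjusted p = 0.113), but it was 0.70 without wild type 1 (edgeR adjusted p = 0.0231) and 0.79 without both libraries numbered 1 (0.00714). It was 0.24 with the GC trend removed (edgeR adjusted p = 0.338) and 0.90 with total counts (0.0117), where 40.8% of all tested genes were called higher. Aurka, a spindle pole kinase (0.18), and Cdc25c, the phosphatase that activates CDK1 (-0.40), did not pass.

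Of the spindle assembly checkpoint, Ttk, Mad2l1 and Bub1 fell. Ttk, the kinase that starts the signal, had 8.40, 10.2 and 8.84 CPM in the knockout and 13.6, 19.2 and 15.3 CPM in wild type (log2 fold change -0.81, SE 0.18, edgeR adjusted p = 0.0112). Mad2l1, which binds CDC20 to hold the anaphase-promoting complex, was at 33.4 to 36.6 CPM in the knockout and 51.2 to 65.4 CPM in wild type, and fell by 0.70 on the log2 scale (SE 0.12). Bub1, a kinetochore kinase, was at 11.8, 17.9 and 16.2 CPM in the knockout and 24.1, 27.5 and 20.5 CPM in wild type (log2 fold change -0.65, SE 0.19, edgeR adjusted p = 0.0308). The Bub1 call ended without knockout 1 (0.0645), knockout 3 (0.0669), wild type 1 (0.0525) or wild type 2 (0.116). Their partners Bub1b (0.07) and Bub3 (-0.08) did not pass. With total counts both were called higher (0.48 and 0.34), where 40.8% of all tested genes were. Bub3 was the steadiest member, at 51.2 to 55.3 CPM in the knockout and 54.2 to 57.4 CPM in wild type; it overlaps Fgfr2 on the other strand.

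Neither partner of the anaphase-promoting complex passed. Ube2c, its ubiquitin-conjugating enzyme, was at -0.26, and Cdc20, its activator and the checkpoint's target, at 0.14. The same held for the chromosomal passenger complex, which corrects wrong attachments, with Aurkb at -0.15, Birc5 (survivin) at -0.47 and Cdca8 (borealin) at 0.20. Birc5 was at 19.1, 30.3 and 29.9 CPM in the knockout and 47.2, 31.6 and 30.8 CPM in wild type, and the gap between knockout 2 and wild type 3 was small.

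At the centromere and kinetochore, Cenpf fell with Ndc80. Cenpf, a large outer kinetochore protein, had 16.6, 20.1 and 17.4 CPM in the knockout and 26.6, 32.3 and 33.3 CPM in wild type (log2 fold change -0.77, SE 0.14, edgeR adjusted p = 0.00515). Nuf2, the direct partner of Ndc80 in the same complex, had 11.6, 11.7 and 13.2 CPM in the knockout and 14.7, 17.6 and 14.8 CPM in wild type, a log2 fold change of -0.37 (SE 0.14) that did not pass (edgeR adjusted p = 0.0786). Cenpe, a kinetochore motor (-0.50), and Cenpa, the centromeric histone (-0.05), did not pass either.

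Among spindle genes, Kif11 fell with Nusap1. Kif11, the motor that pushes the spindle poles apart, had 29.7, 37.2 and 35.4 CPM in the knockout and 52.0, 71.4 and 56.6 CPM in wild type (log2 fold change -0.81, SE 0.15, edgeR adjusted p = 0.00584). Tpx2, an activator of Aurora A (-0.47), and Kif4, a motor on chromosome arms (-0.14), did not pass.

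None of the 6 genes of the central spindle and cytokinesis passed the test. Racgap1 (-0.23) and Kif23 (0.41) encode the subunits of centralspindlin, Prc1 (-0.27) bundles the midzone microtubules, Kif20a (-0.38) is a midzone motor, Ect2 (0.04) activates RhoA at the cleavage furrow, and Anln (-0.12) is a scaffold of the contractile ring. Kif23 lay opposite to most, with 45.2, 35.3 and 36.4 CPM in the knockout and 29.3, 33.0 and 25.6 CPM in wild type and no overlap (edgeR adjusted p = 0.0598). All 6 were positive with total counts. Kif23 (0.83, edgeR adjusted p = 0.00315) and Ect2 (0.46, 0.0457) were then called higher, where 40.8% of all tested genes were. A p above the threshold does not show that these genes were equal between the genotypes.

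Chromosome structure genes held the largest fall, that of Hmgb2, and the single rise. The condensin subunits were split: Smc2 had 26.6, 34.5 and 35.8 CPM in the knockout and 47.2, 75.4 and 59.7 CPM in wild type (log2 fold change -0.91, SE 0.19, edgeR adjusted p = 0.00974). Its partner ATPase Smc4 was at 59.4, 75.1 and 70.4 CPM in the knockout and 77.3, 102 and 85.9 CPM in wild type, which did not pass (-0.37, edgeR adjusted p = 0.071). Ncapg, in the same condensin I complex as Ncapd2, had 15.4, 22.6 and 22.7 CPM in the knockout and 29.4, 43.1 and 32.3 CPM in wild type (log2 fold change -0.79, SE 0.21, edgeR adjusted p = 0.0207). Top2a, the topoisomerase that untangles sister chromosomes and a common proliferation marker, had 76.5, 95.5 and 101 CPM in the knockout and 122, 124 and 96.1 CPM in wild type. Its groups overlapped, and its log2 fold change of -0.33 (SE 0.15) did not pass (edgeR adjusted p = 0.122). Without wild type 2, the calls of Ncapg (edgeR adjusted p = 0.0771), Ccnb1 (0.0722) and Cdk1 (0.0954) ended.

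**Figure D3:**
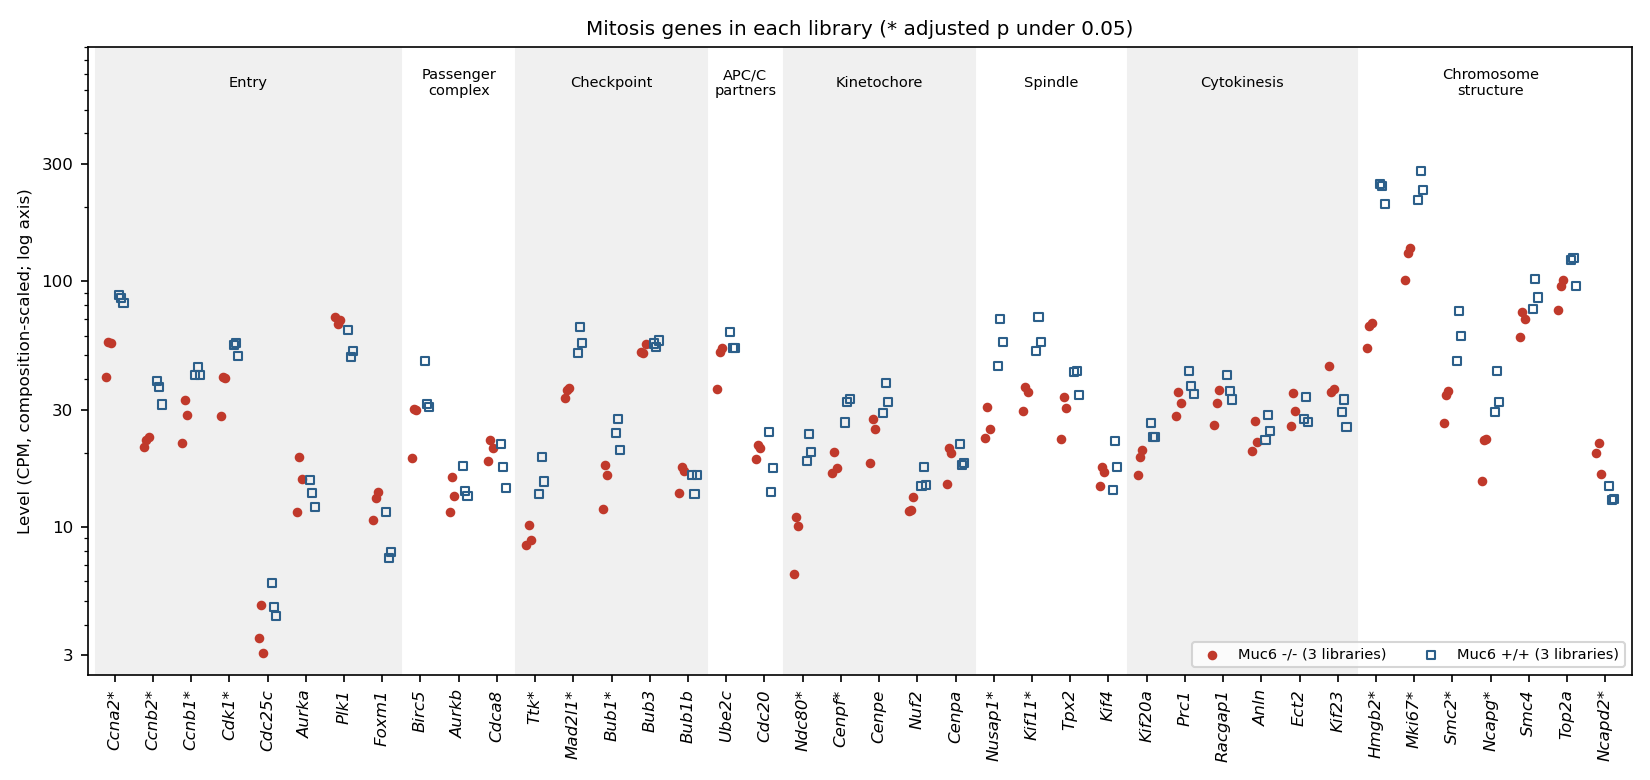
Level of each mitosis gene in every library, in composition-scaled CPM on a log axis, grouped by role; filled circles are the 3 knockout libraries and open squares the 3 wild-type libraries, and a star marks an adjusted p under 0.05. Hmgb2, Mki67, Ndc80, Nusap1 and Kif11 show separate groups, and the cytokinesis genes mostly overlap.

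Ratios between members do not depend on the scaling, and these were picked after the values were seen. Hmgb2 over Mki67 was 0.528, 0.506 and 0.494 in knockout 1 to 3 and 1.15, 0.872 and 0.881 in wild type 1 to 3. Plk1 over Mki67 was 0.706, 0.515 and 0.507 in the knockout and 0.296, 0.175 and 0.221 in wild type. Ncapd2 over Ncapg was 1.29, 0.973 and 0.722 in the knockout and 0.5, 0.299 and 0.402 in wild type. The groups did not overlap in these ratios, which follows from how the pairs were picked. With each library's GC trend removed, the gap in log2 fold change between Ncapd2 and Ncapg was 0.35, against 1.31 without that step. That between Plk1 and Mki67 was 0.90, against 1.33, and that between Hmgb2 and Mki67 was -0.52, against -0.92.

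Summed over the 40 genes, the level was 1104, 1372 and 1344 CPM in knockout 1 to 3 and 1864, 2021 and 1756 CPM in wild type 1 to 3. With total counts the sums were 1262, 1599 and 1556 CPM in the knockout and 1608, 1756 and 1519 CPM in wild type, so the groups overlapped. Without Hmgb2 and Mki67 the total-count sums were 1086, 1370 and 1318 CPM in the knockout and 1208, 1299 and 1136 CPM in wild type. On the main scale the sums without these genes were 950, 1176 and 1139 CPM in the knockout. They were 1401, 1495 and 1314 CPM in wild type, so those groups stayed apart. Knockout 1 held the lowest value of 30 of the 40 genes, and wild type 2 the highest of 18. The groups did not overlap for 25 of the 40 genes, where 54.8% of all tested genes did not, with the knockout below for 22 (26.6% of all) and above for 3 (28.2% of all). With total counts they did not overlap for 17, where 61.7% of all did not, with the knockout below for 8 (11.6% of all) and above for 9 (50.1% of all).

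Without both libraries numbered 1, 17 members fell and 3 rose (Ncapd2, Plk1 and Foxm1), where 48.0% of tested genes changed, 24.3% falling and 23.7% rising, and the median was -0.24. All 16 calls of the full comparison were kept. Without any 1 library 11 to 15 members were lower, the smallest number without wild type 2, and 0 to 3 were higher.

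Transcripts of members that fell had lower GC content, a base composition that can affect sequencing yield. Their median was 42.4% GC (range 34.8% to 49.3%), and that of members that did not pass 47.7% (40.2% to 56.0%). Over the 40 genes Spearman's rho between GC content and log2 fold change was 0.66, and over the 13988 tested genes with a GC value it was 0.34, both across genes that share the same 6 libraries. All tested genes that fell and that rose had medians of 44.9% and 52.8%. After the trend over GC content was taken out of every library, 13 of the 40 members were called, where 34.2% of all tested genes were. Of these, 11 were lower (16.2% of all tested genes) and 2 higher (17.9% of all), which were Kif23 (0.56) and Ect2 (0.51), and the members' median was -0.15. The calls of Ccnb1, Bub1, Mad2l1, Smc2 and Ncapg ended (edgeR adjusted p 0.107, 0.383, 0.0935, 0.0642 and 0.798), and Ube2c was lower (-0.54). Hmgb2 stayed at -1.38 and Mki67 at -0.86 (edgeR adjusted p = 0.0015 and 0.00413).

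**Figure D4:**
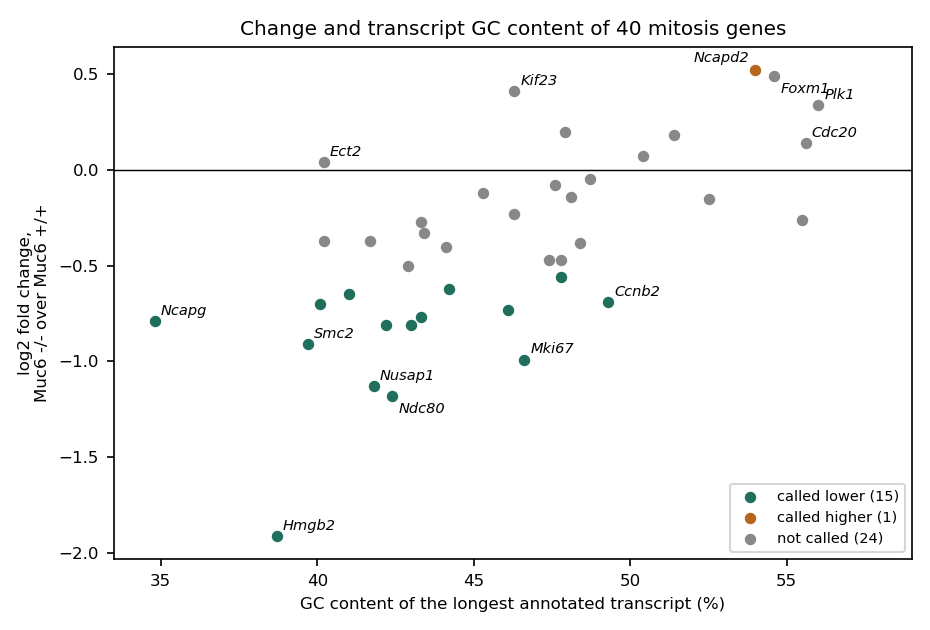
GC content of the longest annotated transcript (x axis, %) against the log2 fold change of knockout over wild type (y axis) for the 40 mitosis genes, coloured by call. The genes that fell lie at 34.8% to 49.3% GC, and Ncapd2, the gene that rose, at 54%.

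Other mitosis genes, from lists that do not hold the 40, also fell more often than they rose. Of 102 such genes, 34 fell and 4 rose, with a median log2 fold change of -0.23. Those that fell were 33.3% and those that rose 3.92%, where 19.2% and 19.3% of all tested genes did. With total counts 4 were lower (3.92%, against 7.81% of all genes) and 25 higher (24.5%, against 40.8%). After removal of the GC trend 14 were lower (13.7%, against 16.2% of all genes) and 6 higher (5.88%, against 17.9%). Leaving out wild type 2 gave 15 that fell, leaving out wild type 3 gave 21, and leaving out knockout 2 gave 22. The number that rose was 1 to 8 without 1 library, highest without wild type 1.

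Of 31 other kinetochore genes 10 fell (32.3%) and none rose, where 19.2% and 19.3% of all tested genes did. But with total counts 2 were lower (6.45%, against 7.81% of all genes) and 6 higher (19.4%, against 40.8%). Spc25, another subunit of the Ndc80 complex, had 17.4 ± 3.34 CPM in the knockout and 46.0 ± 4.25 CPM in wild type (SD, n = 3 each), a log2 fold change of -1.41 (SE 0.17, edgeR adjusted p = 0.00102). The inner kinetochore genes Cenpk and Cenpq were at -1.06 and -0.77. The number of them that fell was 6 without knockout 2 or wild type 3, 4 without wild type 2 and 2 with the GC trend removed, and 3 rose without wild type 1. The Cenpq call ended without wild type 2 (edgeR adjusted p = 0.0613) or wild type 3 (0.0508).

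Of 22 other spindle and cytokinesis genes 8 fell (36.4%) and 1 rose (4.55%), where 19.2% and 19.3% of all tested genes did. But with total counts 1 was lower (4.55%, against 7.81% of all genes) and 4 were higher (18.2%, against 40.8%). Hmmr, a spindle assembly protein, had 19.9 ± 2.65 CPM in the knockout and 41.7 ± 8.37 CPM in wild type (SD, n = 3 each; log2 fold change -1.06, edgeR adjusted p = 0.00389). Aspm, at the spindle poles, and Ckap2, a microtubule-associated protein, were both at -0.71, and Shcbp1, which acts at the midbody, at -0.91. The Ckap2 call ended without knockout 2 (0.0581) or wild type 2 (0.0599), and that of Shcbp1 without wild type 2 (0.0772) or wild type 3 (0.0569). The number that fell was 4 without knockout 1 or knockout 3, 3 without wild type 3, and 2 without wild type 2 or with the GC trend removed.

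Of 16 cohesin and other condensin genes 7 fell (43.8%) and none rose, where 19.2% and 19.3% of all tested genes did. But with total counts none was lower (7.81% of all genes) and 4 were higher, a smaller share than the 40.8% of all. With the GC trend removed 4 were lower, a larger share than the 16.2% of all. In that setting 1 was higher (6.25%, against 17.9%). Rad21, the cohesin subunit cut at anaphase, had 142 ± 8.30 CPM in the knockout and 218 ± 3.81 CPM in wild type (SD, n = 3 each; log2 fold change -0.62, edgeR adjusted p = 0.00255). Pttg1, the securin that guards that cut, was at -0.93, Stag2, another cohesin subunit, at -0.80 and Ncapg2, of condensin II, at -0.79. The Stag2 call ended without wild type 2 (0.0592) or wild type 3 (0.051). Leaving out knockout 1, knockout 2 or knockout 3 gave 4 that fell, and leaving out wild type 2 or wild type 3 gave 3.

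Of 17 genes of the anaphase-promoting complex and its regulators 6 fell (35.3%) and 1 rose (5.88%), where 19.2% and 19.3% of all tested genes did. But with total counts none was lower (7.81% of all genes) and 7 were higher (41.2%, near the 40.8% of all). With the GC trend removed 5 were lower (29.4%, against 16.2% of all) and 2 higher (11.8%, against 17.9%). Its subunits Anapc15, Anapc13, Cdc26 and Cdc16 were at -0.65, -0.63, -0.62 and -0.54, and the call of Cdc16 ended without knockout 2 (edgeR adjusted p = 0.0545). Without knockout 2, knockout 3, wild type 2 or wild type 3 none rose.

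Of 16 other entry genes 3 fell (18.8%, near the 19.2% of all tested genes). Of the 16, 2 rose (12.5%, against 19.3% of all), or 1 without any 1 library other than wild type 1. With total counts 1 was lower (6.25%, against 7.81%) and 4 were higher, a smaller share than the 40.8% of all. Removing the GC trend left 1 lower (6.25%, against 16.2%) and 3 higher (18.8%, near the 17.9% of all). Mastl, the Greatwall kinase that keeps a phosphatase off during mitosis, had 8.52 ± 2.01 CPM in the knockout and 19.7 ± 3.63 CPM in wild type (SD, n = 3 each; log2 fold change -1.20, edgeR adjusted p = 0.00554). Cdc25a, a phosphatase that activates CDKs, rose by 0.67 (48.8 ± 2.44 CPM in the knockout and 30.7 ± 5.19 CPM in wild type, edgeR adjusted p = 0.00862). Arpp19, the Greatwall substrate, was at -0.39, and its direction turned with total counts (0.03). The kinase gene Melk was at -0.63, and its call ended without knockout 2 (0.0509), as that of Arpp19 did without wild type 2 (0.0541).

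Of 21 genes of the regulators of mitosis promoters 6 fell (28.6%) and 2 rose (9.52%), where 19.2% and 19.3% of all tested genes did. With total counts 1 was lower (4.76%, against 7.81% of all) and 8 were higher (38.1%, near the 40.8% of all). Removing the GC trend left 2 lower (9.52%, against 16.2%) and 2 higher (9.52%, against 17.9%). Rb1, the retinoblastoma repressor of E2F factors, had 23.0 ± 1 CPM in the knockout and 48.5 ± 3.91 CPM in wild type (SD, n = 3 each; log2 fold change -1.08, edgeR adjusted p = 6.51e-04). Nfya, the subunit of NF-Y that reads CCAAT, rose by 0.80 (27.6 ± 2.51 CPM in the knockout and 15.9 ± 1.35 CPM in wild type, edgeR adjusted p = 0.00322), and E2f2 rose by 0.79. Tfdp2, an E2F partner, was at -0.41 and turned to 0.01 with total counts. Rb1 was the 1 gene of this list lower without knockout 1, knockout 2, knockout 3 or wild type 2. Leaving out wild type 3 gave 3 that fell, and leaving out wild type 1 gave 5 that rose. The Tfdp2 call ended without any 1 library other than wild type 1 (edgeR adjusted p 0.0551 to 0.0879), and E2f2 lost its call without knockout 2, knockout 3, wild type 2 or wild type 3 (edgeR adjusted p 0.0615 to 0.0751).

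DNA replication genes, the set most like this one, are given beside it. Of 47, 12 fell (25.5%) and 4 rose (8.51%), with a median of -0.06, where 19.2% and 19.3% of all tested genes did. Total counts gave 7 lower (14.9%, against 7.81% of all) and 18 higher (38.3%, near the 40.8% of all). With the GC trend removed 12 were lower (25.5%) and 2 higher (4.26%), with a median of -0.11. The mitosis genes then had 11 lower and 2 higher of 40 and a median of -0.15. Of all tested genes 16.2% were then lower and 17.9% higher. Gins1, of the replicative helicase, was at -1.52, Prim2 and Prim1, of the primase, at -1.48 and -1.15, and Gmnn (geminin), which blocks relicensing, at -1.17. The number that rose was 0 to 3 without 1 library, and the difference between the lists was not tested.

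Markers of other cell types differed between the genotypes too. B and plasma cell markers summed to 158 to 504 CPM in the knockout and 1.85 to 2.39 CPM in wild type, almost all from Igha and Jchain, and 4 of 9 were tested and rose. T cell markers summed to only 2.29 to 3.79 CPM in the knockout and 0.337 to 0.869 CPM in wild type. Of these, 1 of 7 had enough counts to be tested. Fibroblast markers summed to 388 to 511 CPM in the knockout and 44.5, 579 and 716 CPM in wild type, lowest in wild type 1. Of the 7 stem and isthmus markers tested, Lgr5 (-2.80) and Stmn1 (-0.69) fell, Sox9 rose (0.89) and the other 4 were positive and did not pass, with a median log2 fold change of 0.32. Of 6 epithelial markers Cldn7 (2.86), Epcam (1.16) and Krt18 (0.99) rose and Krt8 (-0.50) fell, with a median of 0.65. Their sum, mostly Krt8 and Krt19, was 11300 to 11900 CPM in the knockout and 11500 to 14600 CPM in wild type. The part of these differences in the levels of mitosis genes was not tested.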

How the data were processed

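Polyadenylated RNA of antral mucosa from 3 Muc6 -/- and 3 Muc6 +/+ mouse samples was sequenced, with Nucleospin extraction and a TruSeq Stranded mRNA kit per the labels' protocols. The table the authors deposited holds estimated counts for each gene (28.8% to 34.25% of values above 0 are not whole), on mm10 per the submitters' processing notes. Aligner, counter, annotation and use of strand: not given in the sources used here. Values were rounded. Symbols, for 34582 of 34866 identifiers, and transcript GC content came from GENCODE M21 on the same build.

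Genes were kept with filterByExpr (14017), scaled with TMM factors and tested with robust quasi-likelihood fits in edgeR 4.0.16 on R 4.3.3, knockout over wild type, with Benjamini-Hochberg adjustment over all tested genes at 0.05. CPM are counts divided by the library size times its TMM factor, per 1000000; total-count values use the plain total. The SE is the log2 change divided by the square root of F. Alternatives included DESeq2 1.42.0 and limma-voom (limma 3.58.1). The script was tested on simulated data. Replicate libraries differed by more than counting noise (ratio of chi-square to its degrees of freedom, 17.1 to 85.4). The members, lists, motifs and settings were chosen with earlier results of these data known. Named were all 40 members, Muc6, and in each other list up to 4 genes past the threshold with the smallest adjusted p, except for a few genes not reported here; Ddx3y and the cell type markers are named as checks, and Cblif was not found under that symbol. Of 40 members 24 overlap another annotated gene, so their counts may share reads.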

Additional observations from a re-analysis of the deposited data

How the results depend on the processing

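Relative to 15 lower and 1 higher of the 40 mitosis genes, RLE factors, library sizes without the 20 most abundant genes, no filter, a filter of 1 CPM in 3 libraries and limma-voom gave the same numbers, and DESeq2 gave 18 and 1. Total counts gave 4 and 8, upper quartile factors gave 3 higher, removing the GC trend 2 higher, a false discovery rate of 0.01 none higher, and leaving out both libraries numbered 1 gave 3 higher. Leaving out 1 library gave 0 to 3 higher and 11 to 15 lower. Of all tested genes 2699 were higher and 2687 lower; total counts gave 5718 and 1095, a rate of 0.01 gave 1257 and 1408, and leaving out 1 library 1600 to 3044 higher and 1721 to 2964 lower. Of the 40 members 13 changed sign with total counts and 6 after removal of the GC trend, none of them among the 16 called. Signs of called genes were compared for the members and for the genes named from the other lists. Among those past the threshold under either setting, the sign turned with total counts for Bub3 (0.34), Arpp19 (0.03) and Tfdp2 (0.01). It turned for Arpp19 (0.05) when the GC trend was taken out. Further called genes of those lists, not named here, also turned with total counts, and the cause was not tested. With the replicate number as a block (replicate block) 17 members were lower and 1 higher. Same-numbered libraries correlated at 0.252, 0.0908 and 0.191 in their deviations from the genotype means. Knockout 1 correlated best with wild type 1, but knockout 2 correlated best with wild type 3 (0.275). Whether the numbers pair the libraries is thus not settled. Members with few counts, down to 70 for Cdc25c, are the least precise.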
